A study of Mus musculus with 6 samples.

Results

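The 10 genes described here encode the death receptors Fas, Tnfrsf1a and Tnfrsf10b, the related receptor Tnfrsf1b, the ligands Fasl, Tnf and Tnfsf10, and the intracellular proteins Fadd, Ripk1 and Cflar. They were taken by gene name from a deposited expression table of 54532 genes. All 10 were among the 13393 genes tested, those with at least 1 FPKM (fragments scaled to gene length and library size) in at least 3 of 6 libraries. Of the 10, 7 were at or above 1 FPKM in every library. Fasl, Tnf and Tnfrsf10b reached that level only in the libraries labelled Phf6 wild-type (WT) and passed the filter through that group. The tests of these genes and the number of members called lower are therefore a description and not support for a difference.

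RNA-seq was performed on bone marrow (BM) of C57BL/6 mice at day 100 after transplantation, with 3 WT libraries and 3 libraries labelled as Phf6 knockout (KO). Per the methods of the study, donor cells were lineage-negative BM cells of 8-week-old male mice, infected with an MSCV retrovirus carrying JAK3 M511I and GFP and transplanted into male recipients, which models T-cell acute lymphoblastic leukemia (T-ALL). WT donors were Phf6 fl/y, KO donors were Vav1-Cre;Phf6 fl/y, in which Cre is driven by the Vav1 promoter in hematopoietic cells and exons 4 to 5 of Phf6 are flanked by LoxP sites, and both groups carried JAK3 M511I. The genotype labels end in a different digit for each library of a group (Phf6, Phf7, Phf8) and were read as Phf6, as the design text has it; the labels give the tissue as BM and do not say whether GFP+ cells were sorted, so recipient cells may be present in either group.

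Death receptors are members of the TNF receptor superfamily with an intracellular death domain. Binding of Fasl to Fas, or of Tnfsf10 (TRAIL) to Tnfrsf10b, recruits the adaptor Fadd and the initiator protease Casp8 into a death-inducing complex, which Cflar (c-FLIP) restrains. Tnf acts through Tnfrsf1a, whose complex with Ripk1 can signal to NF-kappaB or to cell death, and through Tnfrsf1b, which has no death domain. In blood and BM, Fasl is made chiefly by activated T cells and natural killer (NK) cells, and Tnf by many myeloid and lymphoid cells.

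The promoters of Fasl and Tnf, the ligands with the largest differences between groups, are shown beside that of Fas, whose level did not pass the test, so that the windows before their start sites can be compared. Each run is the 250 bases before the annotated start in RefSeq (GRCm38.p6), 5′ to 3′ on the strand of the gene: chr1:161788496-161788745 (minus strand) for Fasl, chr17:35202008-35202257 (minus strand) for Tnf and chr19:34290409-34290658 (plus strand) for Fas. Capitals mark matches, on either strand, to 6 short motifs. These were the TATA box, spelled TATAAA, the motif of AP-1 factors, spelled TGANTCA, and that of STAT factors, spelled TTCNNNGAA. The others were that of interferon regulatory factors, spelled GAAANNGAA, a motif like that of NFAT, spelled TTTCCA, and one like that of NF-kappaB, spelled GGGNNTTCC. Only these spellings were searched, so a window without a match may hold a shorter or other form of a motif.
Fasl: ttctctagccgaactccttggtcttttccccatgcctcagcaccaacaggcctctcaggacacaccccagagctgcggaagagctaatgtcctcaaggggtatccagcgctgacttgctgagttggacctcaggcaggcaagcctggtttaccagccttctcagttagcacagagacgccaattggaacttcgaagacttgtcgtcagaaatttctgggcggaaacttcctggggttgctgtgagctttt
Tnf: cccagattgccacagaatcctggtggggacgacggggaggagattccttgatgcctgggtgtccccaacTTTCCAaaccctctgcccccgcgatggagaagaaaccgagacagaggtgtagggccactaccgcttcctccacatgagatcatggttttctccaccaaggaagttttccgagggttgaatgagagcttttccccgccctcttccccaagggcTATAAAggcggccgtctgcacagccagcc
Fas: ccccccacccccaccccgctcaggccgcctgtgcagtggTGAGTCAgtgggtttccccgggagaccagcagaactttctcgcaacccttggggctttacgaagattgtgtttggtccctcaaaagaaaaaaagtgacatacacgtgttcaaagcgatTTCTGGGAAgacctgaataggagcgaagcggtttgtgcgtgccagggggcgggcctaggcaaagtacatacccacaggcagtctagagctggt
The Tnf window held the NFAT-like motif starting 181 bases and the TATA box starting 29 bases before the start site. The Fas window held the AP-1 motif at 211 bases and the STAT motif at 93 bases, and the Fasl window held none of the 6 as spelled. In these 3 windows no matches overlapped. Of 32851 RefSeq windows of this length, 12.4% held the TATA box, 18.6% the NFAT-like motif and 6.75% the AP-1 motif. The shares were 7.02% for the STAT motif, 7.13% for the interferon regulatory factor motif and 4.98% for the NF-kappaB-like motif. Of the 10 genes, 9 had an entry in the promoter table. The STAT motif also occurred in the windows of Tnfrsf1a and Tnfrsf1b and in 1 of the 2 windows of Ripk1. The TATA box occurred in that of Cflar, in 1 stretch read on both strands. The NFAT-like motif also occurred in the window of Tnfsf10, at 134 bases, and the interferon regulatory factor motif in that of Tnfrsf1b, at 9 bases. These matches describe letters only and say nothing of binding.

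Libraries held 13015823 to 18235095 fragments assigned to genes, recovered from FPKM and gene length. WT 2 stood apart: genes under 1000 bases took 17.1% of its fragments and 3.11% to 5.01% of those of any other library, and genes of at least 8000 bases took 6.74% and 22.9% to 26.5%. Its summed FPKM of 9 erythroid markers was 68130, against 10.8 to 534 elsewhere. The difference of each member, each ratio and each named pathway gene, and the counts per class, are therefore also given without WT 2. Over all genes tested, 1785 (13.3%) were lower and 1754 (13.1%) higher in KO, with a median log2 difference of 0.09; after rescaling each library to TPM, in which all libraries have the same sum, the split was 1081 lower and 2279 higher. The FPKM of Phf6 was 7.47, 3.67 and 8.02 in WT 1 to WT 3 and 6.73, 5.50 and 5.11 in KO 1 to KO 3, overlapping between groups (log2 difference −0.07, limma adjusted p = 0.893; −0.37 without WT 2, adjusted p = 0.0992); fragments from all exons are pooled in this value, and exons outside the LoxP sites can still be read in KO, so it does not check the labels.

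Of the 10 members, 5 were lower in KO at a Benjamini-Hochberg adjusted p under 0.05 in limma on log2(FPKM + 1) (Fasl, Tnf, Tnfrsf1a, Tnfrsf1b and Tnfrsf10b), 0 were higher and 5 did not pass. The share of all genes tested that was called lower was 13.3%, and 3 of the 5 called members could pass the filter only through WT. The count of members higher was also 0 at an unadjusted p under 0.05 in limma and 0 in voom on the recovered fragments. The median log2 difference over the 10 was −0.87, against 0.09 over all genes tested. For 6 members, the same 5 and Ripk1, every KO library lay below every WT library, as it did for 22.9% of all genes tested, and for 0 members did every KO library lie above every WT library, as it did for 26.2% of all genes. Without WT 2, 8 members were lower, all but Fas and Fadd, against 25.3% of all genes tested, and the median was −1.11. Since each library pools the RNA of many cells, sorted or not, fewer cells of a type and less RNA per cell cannot be told apart in any of these differences. The plot of FPKM by library sets the members side by side by role.

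**Figure D1:**
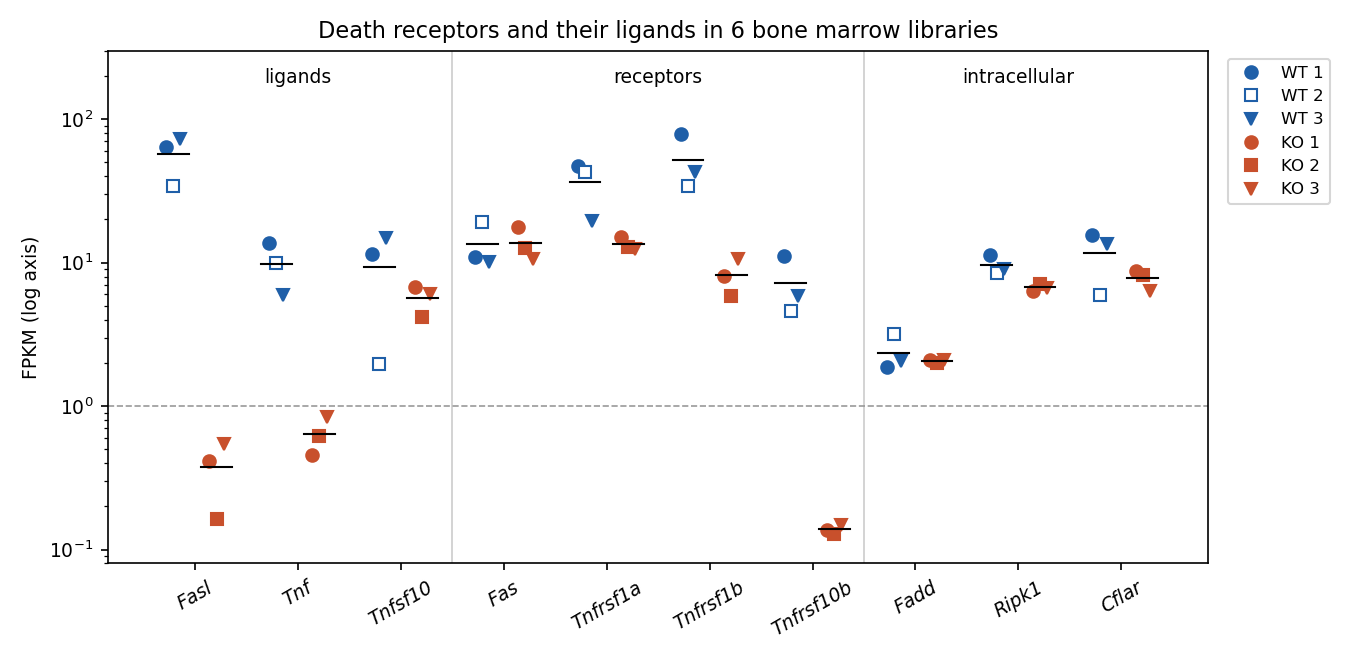
FPKM of the 10 members in each library on a log axis, with WT in blue (WT 2 as an open square), KO in orange, black bars for the mean of the 3 libraries of a group and a dashed line at 1 FPKM. Fasl, Tnf and Tnfrsf10b lay above the line in all WT libraries and below it in all KO libraries, while the groups overlapped for Fas, Fadd, Tnfsf10 and Cflar.

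Among the ligands, Fasl showed the largest difference of the 10 genes. Fasl (ENSMUSG00000000817, chr1:161780689-161788495, GRCm38) was at 63.9, 34.2 and 72.6 FPKM in WT 1, WT 2 and WT 3, and at 0.416, 0.164 and 0.545 FPKM in KO 1, KO 2 and KO 3. The lowest WT library lay far above the highest KO library, and the KO values rested on only 15, 5 and 17 fragments, against 779 to 2180 in WT. The means were 56.9 ± 20.1 FPKM in WT and 0.375 ± 0.194 in KO (SD, n = 3 each), a 152-fold ratio. The log2 difference was −5.34 (SE 0.34, 95% interval −6.16 to −4.51, limma adjusted p = 0.000292) and −5.66 without WT 2 (adjusted p = 4.04e-05). Fasl stayed lower in KO and past the threshold in 19 of 19 alternative settings, with values from −7.26 to −5.13. As Fasl passed the filter through WT only, its test and these passes are a description and not support.

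Tnf, a proinflammatory cytokine, was also below 1 FPKM in every KO library. Tnf (ENSMUSG00000024401, chr17:35199381-35202007) was at 13.7, 9.91 and 5.98 FPKM in WT 1 to WT 3, and at 0.459, 0.620 and 0.834 FPKM in KO 1 to KO 3. All 3 WT libraries lay above all 3 KO libraries, in which 14 to 22 fragments were counted. The means were 9.86 ± 3.85 and 0.637 ± 0.188 FPKM (SD, n = 3 each), a 15.5-fold ratio, and the log2 difference was −2.67 (SE 0.33, 95% interval −3.45 to −1.89, limma adjusted p = 0.00212). Without WT 2 it was −2.63, and it passed the threshold in 19 of 19 alternatives. Like Fasl, Tnf passed the filter through WT only, and its test is likewise a description.

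The third ligand, Tnfsf10 (TRAIL), differed from the other two in that KO kept a clear level. Tnfsf10 (ENSMUSG00000039304, chr3:27317028-27342427) was at 11.5, 1.95 and 14.8 FPKM in WT 1 to WT 3, and at 6.76, 4.20 and 6.03 FPKM in KO 1 to KO 3. WT 2 was the lowest of all 6 libraries, WT 1 and WT 3 were the highest, and the groups overlapped. The log2 difference was −0.34 (95% interval −1.88 to 1.20, limma adjusted p = 0.740), and without WT 2 it was −1.09 (95% interval −1.64 to −0.55, adjusted p = 0.00901), so that 1 library decided the call. The table gives Tnfsf10 a length of 5266 bases, and its level in WT 2 was 0.149 of the mean of WT 1 and WT 3; the part of the short-gene excess of WT 2 in this value was not tested.

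The makeup of the summed RNA of these 3 ligands therefore differed between groups. Other ligands of the superfamily were not in this sum. Summed over the 3 ligands, FPKM was 89.0, 46.1 and 93.4 in WT 1 to WT 3 and 7.63, 4.98 and 7.41 in KO 1 to KO 3. Fasl made up 71.8% to 77.8% of that sum in WT and 3.29% to 7.36% in KO. Tnfsf10 made up 4.24% to 15.8% in WT and 81.4% to 88.5% in KO. These shares follow from the levels above and were given no test.

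Of the 4 receptors, Fas was the one that did not pass the test. Fas (ENSMUSG00000024778, chr19:34290659-34327770), the receptor of Fasl, was at 11.0, 19.3 and 10.0 FPKM in WT 1 to WT 3, and at 17.7, 12.6 and 10.5 FPKM in KO 1 to KO 3. The groups overlapped throughout, with the highest value in WT 2. The means were 13.4 ± 5.08 and 13.6 ± 3.72 FPKM (SD, n = 3 each), with a log2 difference of 0.04 (95% interval −0.76 to 0.85, limma adjusted p = 0.943) and 0.31 without WT 2 (adjusted p = 0.284). The interval allows a difference in either direction, the sign turned in 4 of 19 alternatives, and Fas passed the threshold in 0 of 19.

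Tnfrsf1b and Tnfrsf1a, the receptors of Tnf, were both lower in KO. Tnfrsf1b (ENSMUSG00000028599, chr4:145213463-145246870) was at 78.9, 34.2 and 42.6 FPKM in WT 1 to WT 3, and at 8.08, 5.89 and 10.6 FPKM in KO 1 to KO 3. The groups did not overlap, and the means of 51.9 ± 23.8 and 8.20 ± 2.37 FPKM (SD, n = 3 each) stood in a 6.33-fold ratio. The log2 difference was −2.47 (SE 0.38, 95% interval −3.38 to −1.55, limma adjusted p = 0.00503), and −2.71 without WT 2 (adjusted p = 0.00149). It no longer passed after rescaling to TPM (−1.74, adjusted p = 0.107) or to the summed level of Cd3d, Cd3e and Cd3g (−2.24, adjusted p = 0.108).

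Tnfrsf1a (ENSMUSG00000030341, chr6:125349362-125362484) was at 47.0, 42.9 and 19.6 FPKM in WT 1 to WT 3, and at 15.1, 12.9 and 12.5 FPKM in KO 1 to KO 3. WT 3 was close to the KO libraries, which varied little, but the groups did not overlap. The means were 36.5 ± 14.8 and 13.5 ± 1.40 FPKM (SD, n = 3 each), a 2.70-fold ratio, and the log2 difference was −1.28 (SE 0.37, 95% interval −2.17 to −0.40, limma adjusted p = 0.0451). This call was lost in 9 of 19 alternatives, among them rescaling to TPM (−0.49, adjusted p = 0.427) and leaving out WT 1 (−1.06, adjusted p = 0.127), KO 1 (−1.36, adjusted p = 0.116), KO 2 (−1.25, adjusted p = 0.152) or KO 3 (−1.23, adjusted p = 0.152). Without WT 2 it was −1.12 (adjusted p = 0.0388).

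Tnfrsf10b (ENSMUSG00000022074, chr14:69767472-69784411), the receptor of Tnfsf10, was at a low level in KO, by few fragments. It was at 11.2, 4.60 and 5.86 FPKM in WT 1 to WT 3, and at 0.138, 0.128 and 0.148 FPKM in KO 1 to KO 3, where it rested on 14, 11 and 13 fragments. The groups lay far apart, with means of 7.22 ± 3.49 and 0.138 ± 0.00998 FPKM (SD, n = 3 each), a 52.3-fold ratio. The log2 difference, which understates the change of a gene under 1 FPKM, was −2.77 (SE 0.32, 95% interval −3.54 to −2.00, limma adjusted p = 0.00179), and −3.01 without WT 2. It was lower and past the threshold in the 18 alternatives in which it was tested. Tnfrsf10b also passed the filter through WT only, and its test is likewise a description.

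The share of Fas in the summed FPKM of the 4 receptors was 7.43% to 19.1% in WT and 31.1% to 43.2% in KO. The sum itself was 148, 101 and 78.2 in WT 1 to WT 3 and 41.1, 31.5 and 33.8 in KO 1 to KO 3. In the order of mean FPKM, Fasl, Tnfrsf1b and Tnfrsf1a led in WT, each overlapping with the next in that order, and Tnfrsf1a lay above Fas without overlap. In KO, Fas and Tnfrsf1a led and overlapped with each other; Tnfrsf1a lay above Tnfrsf1b without overlap, but Fas did not, at 10.5 FPKM in KO 3 against 10.6 for Tnfrsf1b, while Tnf, Fasl and Tnfrsf10b were the 3 lowest, below Fadd in every library.

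None of the 3 intracellular proteins passed the test with all libraries. Fadd (ENSMUSG00000031077, chr7:144577318-144582463), the adaptor shared by Fas and Tnfrsf10b, was at 1.86, 3.18 and 2.05 FPKM in WT 1 to WT 3, and at 2.09, 1.99 and 2.08 FPKM in KO 1 to KO 3. The KO libraries were nearly equal, WT 2 was the highest, and the groups overlapped. The log2 difference was −0.12 (95% interval −0.68 to 0.44, limma adjusted p = 0.751), and 0.05 without WT 2. Fadd overlaps the antisense gene Faddos, listed at up to 0.369 FPKM, and without strand in the counting, which is not given in the sources used here, reads of the pair cannot be told apart.

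Ripk1 (ENSMUSG00000021408, chr13:34002363-34037147), the kinase of the Tnfrsf1a complex, was at 11.3, 8.47 and 9.04 FPKM in WT 1 to WT 3, and at 6.39, 7.15 and 6.66 FPKM in KO 1 to KO 3. All KO libraries lay below all WT libraries, by a small step. The log2 difference was −0.45 (95% interval −0.99 to 0.10, limma adjusted p = 0.203), and −0.52 without WT 2 (adjusted p = 0.0305), so the call depended on that library. Ripk1 overlaps Serpinb6a and the pseudogene Gm17083 on the other strand, listed at up to 8.21 and 6.73 FPKM.

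Cflar (ENSMUSG00000026031, chr1:58711508-58758884), the inhibitor of Casp8 activation, was at 15.6, 6.00 and 13.6 FPKM in WT 1 to WT 3, and at 8.75, 8.24 and 6.31 FPKM in KO 1 to KO 3. WT 2 was the lowest of all 6 libraries, and WT 1 and WT 3 lay above all KO libraries. The log2 difference was −0.45 (95% interval −1.37 to 0.46, limma adjusted p = 0.433), and −0.84 without WT 2 (adjusted p = 0.00997). Cflar is the longest of the 10 genes in the table, at 12669 bases, and its level in WT 2 was 0.411 of the mean of WT 1 and WT 3; after the trend with gene length was removed from each library it passed the threshold, as it did with array weights.

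**Figure D2:**
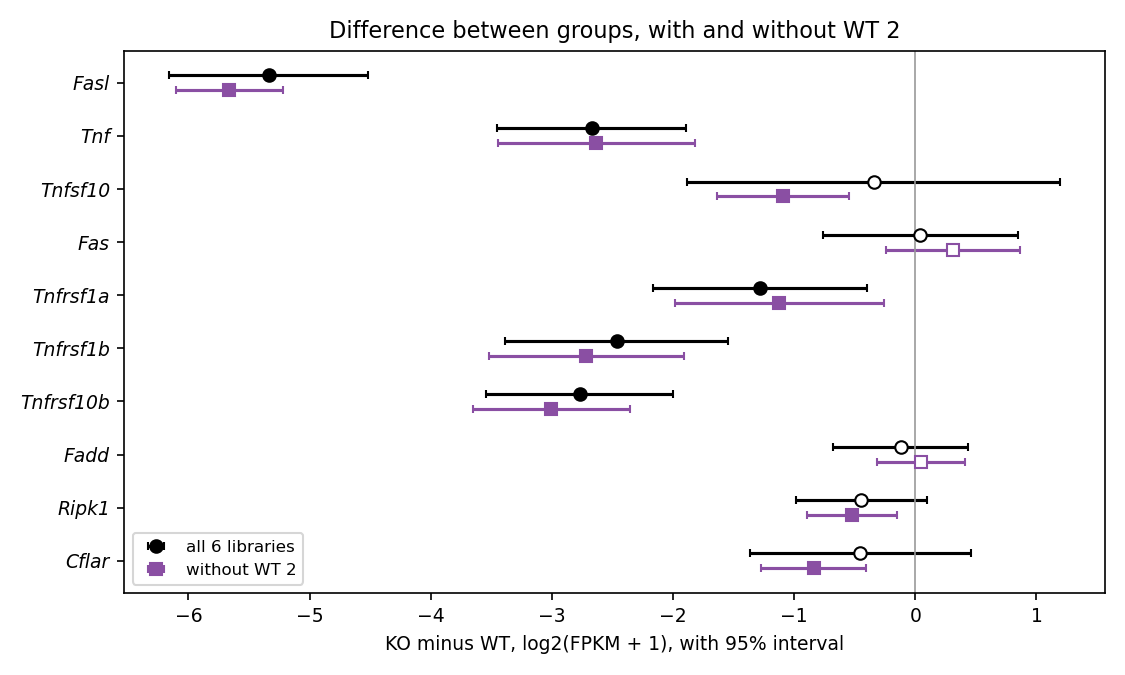
KO minus WT difference in log2(FPKM + 1) for each member with its 95% interval from limma, with all 6 libraries (black circles) and without WT 2 (purple squares); filled symbols passed an adjusted p of 0.05. Tnfsf10, Ripk1 and Cflar passed only without WT 2, and the intervals of Fas and Fadd included 0 both ways.

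Ratios of genes within a library depend little on how that library was scaled, and only through the 1 added to each FPKM. A bias with gene length, as in WT 2, does not cancel between genes of unlike length, such as Cflar (12669 bases) and Casp8 (2893 bases). Its part in the ratios was not tested. The log2 ratio of Cflar to Casp8, inhibitor to protease, taken on FPKM + 1, was −0.96, −1.63 and −1.35 in WT 1 to WT 3 and −1.96, −1.94 and −2.51 in KO 1 to KO 3. The lowest WT value lay above the highest KO value, and WT 2 was the WT library nearest to KO. The means were −1.32 ± 0.34 and −2.14 ± 0.32 (SD, n = 3 each), with a difference of −0.82 (exact two-sided permutation p = 0.1, adjusted p = 0.2 over the 2 ratios compared), where 0.1 is the smallest p that 3 against 3 can give; without WT 2 the difference was −0.98. The log2 ratio of Tnfrsf1b to Tnfrsf1a was 0.74, −0.32 and 1.08 in WT 1 to WT 3 and −0.83, −1.01 and −0.22 in KO 1 to KO 3. Here WT 2 lay within the KO range, and the difference of −1.18 had an exact two-sided permutation p of 0.2 (adjusted p = 0.2) and was −1.59 without WT 2.

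**Figure D3:**
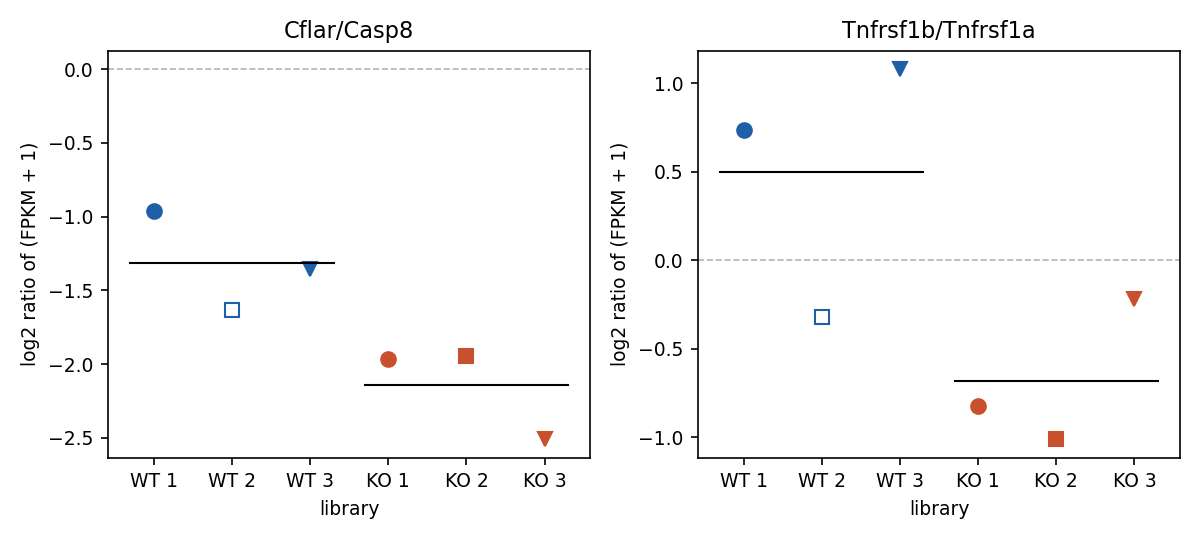
Log2 ratio of FPKM + 1 within each library for Cflar over Casp8 (left) and Tnfrsf1b over Tnfrsf1a (right), with black bars for group means and a dashed line at a ratio of 1. The groups lay apart for Cflar over Casp8 and overlapped through WT 2 for Tnfrsf1b over Tnfrsf1a.

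The list of other genes of the pathway held 82 genes in 6 classes, of which 64 were tested: 17 were lower in KO, 4 were higher and 43 did not pass, with a median log2 difference of −0.31, against 13.3% lower and 13.1% higher of all genes. Leaving out KO 1, KO 2 or KO 3 left 9, 8 and 8 pathway genes lower, where 8.08%, 7.44% and 7.91% of all genes tested were lower, and leaving out WT 2 gave 24 lower and 10 higher, where 25.3% and 26.8% of all genes were. Of the 17 lower genes, 6 (Lta, Ltbr, Mlkl, Tnfrsf12a, Tnfrsf21 and Traf1) reached 1 FPKM in WT libraries only. Of the 4 higher, Tnfrsf8 and Tnfsf11 did so in KO libraries only. These 8 passed the filter through the group where they are high, so their tests and the counts are a description. Among other ligands of the superfamily, 6 of 14 were tested, 3 lower and 1 higher. Tnfsf14 (LIGHT) fell from 18.7 ± 7.75 to 1.69 ± 0.43 FPKM (log2 difference −2.81, limma adjusted p = 0.00203). Ltb (lymphotoxin beta) had means of 178 and 25.3 FPKM (−2.49, adjusted p = 0.0203), with 348 FPKM in WT 2 against 84.1 and 102 in WT 1 and WT 3, and its call was lost when any one KO library was left out. Lta (lymphotoxin alpha), which shares the receptors of Tnf, was at a mean of 1.98 FPKM in WT and 0.490 in KO (−0.96, adjusted p = 0.0409), and passed in 7 of 18 alternatives. The ligand that moved the other way was Tnfsf11 (RANKL), at 0.273 ± 0.241 FPKM in WT and 14.9 ± 6.78 in KO (3.58, adjusted p = 0.00108). Without WT 2 the differences of Tnfsf14, Ltb, Lta and Tnfsf11 were −2.51, −1.86, −0.71 and 3.44, and 4 ligands were lower and 1 higher.

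Of 23 other receptors, 14 were tested, with 8 lower and 1 higher, against 13.3% and 13.1% of all genes tested. Tnfrsf12a (the TWEAK receptor) was at 7.12 ± 0.608 FPKM in WT and 0.753 ± 0.200 in KO (−2.22, limma adjusted p = 0.00103). Tnfrsf18 (GITR) had means of 32.1 and 3.56 FPKM (−2.71, adjusted p = 0.00514), and Relt had means of 20.9 and 5.96 FPKM (−1.66, adjusted p = 0.00298), the latter not past the threshold after rescaling to TPM or to Cd3d, Cd3e and Cd3g. Tnfrsf8 (CD30) was the receptor that rose, from 0.200 ± 0.174 FPKM in WT to 42.2 ± 5.23 in KO (5.17, adjusted p = 0.000233). Its KO libraries lay between 37.2 and 47.6 FPKM, and its WT libraries between 0.0560 and 0.393. Without WT 2 the differences of Tnfrsf12a, Tnfrsf18, Relt and Tnfrsf8 were −2.24, −2.25, −1.73 and 5.29. In that setting 9 receptors were lower and 2 higher, against 25.3% and 26.8% of all genes tested.

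All 8 caspases and mitochondrial link genes were tested, with 0 lower, 1 higher and 7 not past the threshold in limma. Of all genes tested, 13.3% were lower and 13.1% higher. The class counts were also 0 and 1 at an unadjusted p under 0.05 and in voom. Casp8 was at 31.4, 20.7 and 36.3 FPKM in WT 1 to WT 3 and at 37.0, 34.5 and 40.6 in KO 1 to KO 3 (log2 difference 0.37, 95% interval −0.31 to 1.04, limma adjusted p = 0.390; 0.14 without WT 2), with overlapping groups. Casp6, an executioner caspase, rose from 1.64 ± 0.0809 to 5.51 ± 0.461 FPKM (1.30, adjusted p = 0.00561; 1.32 without WT 2), and did not pass after scaling to Cd3d, Cd3e and Cd3g. Without WT 2, 0 genes of this class were lower and 3 higher, against 25.3% and 26.8% of all genes tested.

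Of the 24 genes of the TNF receptor complex and ubiquitin editing, 5 were lower, 1 was higher and 18 did not pass. Of all genes tested, 13.3% were lower and 13.1% higher. Traf1 and Traf5, adaptors that bind TNF receptor family members, had means of 23.5 and 9.10 FPKM in WT and 0.617 and 1.19 FPKM in KO (−3.90 and −2.16, limma adjusted p = 0.000504 and 0.00447). Birc3 (cIAP2), a ubiquitin ligase of that complex, had means of 18.8 and 7.18 FPKM (−1.26, adjusted p = 0.00967), and Tab1, which activates the kinase Map3k7 (TAK1), had means of 9.28 and 24.8 FPKM (1.43, adjusted p = 0.0289). Without WT 2 the differences of Traf1, Traf5, Birc3 and Tab1 were −3.66, −1.89, −1.41 and 1.81. In that setting 9 genes of the class were lower and 2 higher, against 25.3% and 26.8% of all genes tested. The call of Birc3 was lost without KO 2, without KO 3, after rescaling to TPM and after scaling to Cd3d, Cd3e and Cd3g. That of Tab1 was lost with no filter on low values and without any one library except WT 2. Of the 3 necroptosis genes, Mlkl, the executioner of that pathway, was lower, at 3.73 ± 1.88 FPKM in WT and 0.115 ± 0.0712 in KO (−2.00, adjusted p = 0.00608; −1.72 without WT 2), and the other two did not pass. Without WT 2, 1 necroptosis gene was lower and 1 higher. Of 10 shedding proteases and Fas-binding proteins, 9 were tested and 0 passed the threshold in limma, also 0 at an unadjusted p under 0.05 and 0 in voom, while without WT 2 1 was lower and 1 higher.

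**Figure D4:**
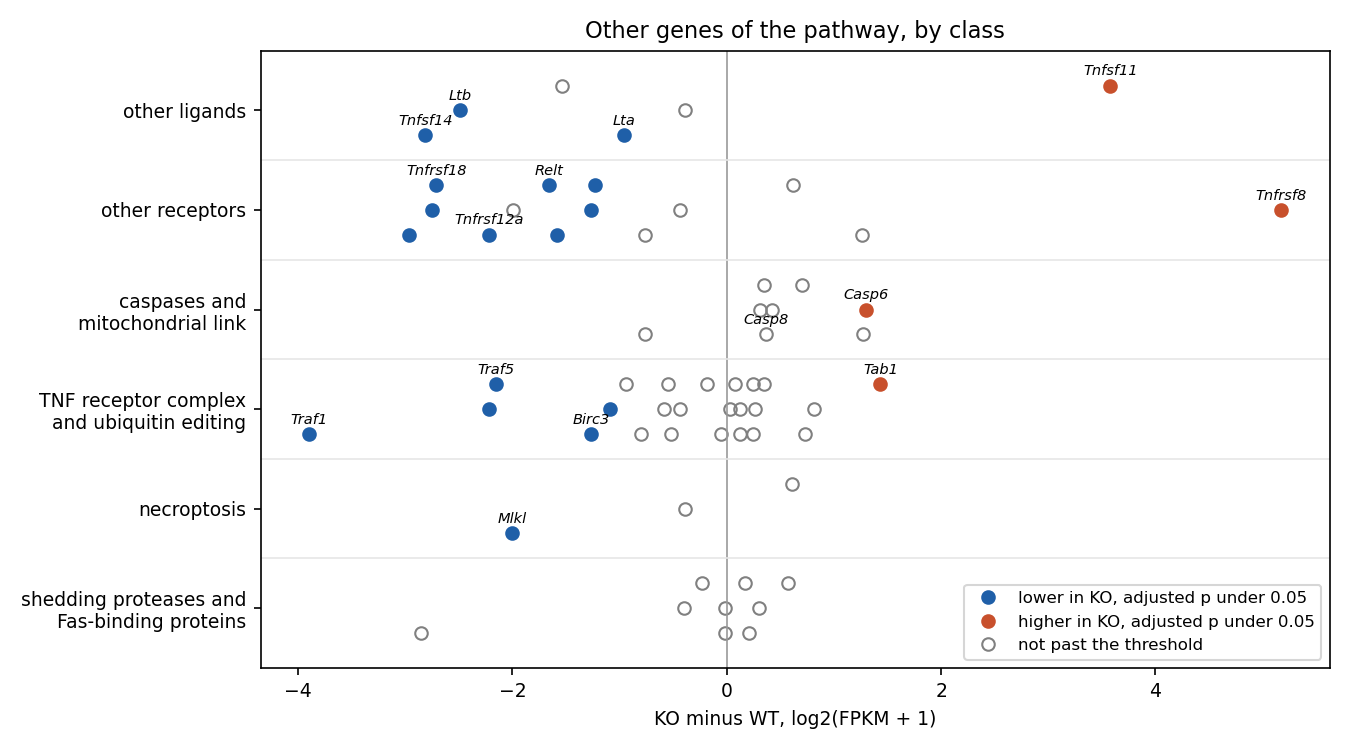
KO minus WT difference in log2(FPKM + 1) for the 64 tested genes of the pathway list, 1 row per class, with genes spread over 3 heights in each row only for legibility. Filled blue points were lower in KO and filled orange points higher at a limma adjusted p under 0.05; the 17 lower genes were in 4 of the 6 classes, and Tnfrsf8 and Tnfsf11 lay farthest to the right.

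Over the 6 libraries, the protein-coding genes whose log2(FPKM + 1) profile, centred on its mean, was nearest to that of Fasl were Il18rap (root mean square difference 0.167) and S1pr1 (0.214). For Tnf they were Abhd5 (0.141) and Hsph1 (0.168), and for Tnfsf10 they were Gm340 (0.109) and Bicral (0.127). Il18rap was at 31.2 to 88.0 FPKM in WT and 0.245 to 0.779 FPKM in KO, close to the levels of Fasl itself. Gm340 and Bicral were, like Tnfsf10, lowest of all libraries in WT 2.

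Markers of NK cells, effector CD8 T cells and myeloid cells were mostly lower in KO as well. Counts of markers called were taken with all 6 libraries only, where 13.3% of all genes tested were lower and 13.1% higher. The summed FPKM of 7 NK markers was 54.0 to 102 in WT and 0.370 to 1.44 in KO. All 5 tested were lower, and Klra4 and Klra8 were listed at 0 in every KO library. The 8 effector CD8 T-cell markers summed to 1678 to 5251 FPKM in WT and 588 to 662 in KO (7 of 8 lower, 1 higher). The paper describes leukemia cells in the blood of both groups as mainly CD3+ or CD8+. Whether the effector CD8 markers came from leukemia cells or from other cells was not tested. For 15 neutrophil markers the sums were 6991 to 96491 in WT and 96.2 to 296 in KO, with all 15 lower, and for 11 monocyte and macrophage markers 602 to 5026 and 16.5 to 30.1, with 7 of 9 tested lower. Their part in the lower Fasl, Tnf, Tnfrsf1a, Tnfrsf1b and Tnfrsf10b was not tested.

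The labelled tissue holds T cells, and T-cell markers were present in all 6 libraries. The 11 T-cell genes summed to 1044 to 2109 FPKM in WT and 1116 to 1229 in KO, with 1 of 11 lower. Of all genes tested, 13.3% were lower and 13.1% higher. The 6 immature thymocyte genes were all higher in KO, where they summed to 919 to 1079 FPKM against 1.34 to 31.7 in WT. The 11 B-cell genes summed to 15.2 to 1356 FPKM in WT, highest in WT 2, and 3.44 to 3.90 in KO (1 of 6 tested lower). The 9 erythroid genes summed to 139 to 68130 FPKM in WT and 10.8 to 122 in KO, with 0 of 7 tested past the threshold in limma, 3 lower at an unadjusted p under 0.05 and 0 in voom. The 5 platelet genes summed to 7.15 to 61.6 FPKM in WT, highest in WT 2, and 1.28 to 1.91 in KO. Of the 3 tested, 0 were past the threshold in limma, 2 were lower at an unadjusted p under 0.05 and 2 in voom. The 6 stromal and endothelial genes summed to 5.76 to 11.2 and 17.2 to 18.2 FPKM, and the 1 tested was higher in KO. When each library was rescaled to its summed Cd3d, Cd3e and Cd3g level, Fasl, Tnf and Tnfrsf10b were lower and past the threshold. The differences of Tnfrsf1a (−1.03, limma adjusted p = 0.367) and Tnfrsf1b (−2.24, adjusted p = 0.108) stayed negative and close in size but did not pass, with the SE of Tnfrsf1b at 0.79 in place of 0.38. The summed Cd3 FPKM was 175, 742 and 220 in WT 1 to WT 3 and 292, 240 and 231 in KO 1 to KO 3. This scaling therefore brought WT 2 down against the others, and the part of that in the lost calls was not tested.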

How the data were processed

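RNA-seq was performed on 6 BM libraries, 3 of each genotype label (WT and KO). Total RNA was isolated with Trizol and converted with a NEBNext kit, and the authors sequenced it in paired-end mode (Illumina NovaSeq). The authors deposited gene FPKM values, 1 column per library, which are normalized to gene length and library size. The processing notes of the submitters name HISAT2 2.0.5, featureCounts 1.5.0-p3 and GRCm38 (mm10), while the gene annotation and any use of strand in counting are not given in the sources used here. The authors tested counts with DESeq2. Here the deposited unit was FPKM, so limma 3.58.1 in R 4.3.3 (lmFit, eBayes with a trend, two-sided) was fitted to log2(FPKM + 1) of all 13393 genes with at least 1 FPKM in at least 3 libraries, with Benjamini-Hochberg adjustment over all of them, and only the chosen genes are printed. A difference on the log2(FPKM + 1) scale understates the change of low genes.

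Multiplied by gene length, FPKM came in whole steps of 1 fragment for 100% of values (tolerance 0.001), from which fragments per library were recovered. The library size in the FPKM was 0.645 (WT 2) to 1.21 times the fragments recovered. Coordinates were those in the deposited table, identical to GENCODE M21 (GRCm38) for 53548 of 54532 genes and 9 of 10 members. Ratios were compared by exact permutation with SciPy 1.17.1. Same-numbered libraries deviated from their group means with correlations of 0.0954, 0.105 and −0.153, so the numbers were not treated as pairs. The labels do not say that libraries came from separate animals, so p-values measure the spread between these libraries.

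The members, the pathway and marker lists and the motifs were chosen with earlier results of these data known. Every member is named, with up to 3 genes per class and direction of the pathway list by smallest p, Casp8, 2 genes of most similar profile per ligand, and Phf6; Il18rap and the others of that kind were named by that rule. In all, 19 alternatives were fitted: 2 other pseudocounts, no filter or a mean filter, 5 scalings, no trend, array weights, a replicate block, voom on the recovered fragments, and each library left out in turn. Protein sequences were not used here.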

Additional observations from a re-analysis of the deposited data

How the results depend on the processing

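The number of members lower in KO, 5 with all libraries, was 3 with a filter of mean FPKM of at least 5 (8 members tested), 3 after rescaling to TPM, 3 after scaling to Cd3d, Cd3e and Cd3g, and 8 with array weights, which gave WT 2 a weight of 0.0509. Of all genes tested, 12.7%, 8.07%, 7.85% and 30.4% were lower in these settings, so the count of 8 went with a rise over all genes. Leaving out 1 library gave 4 to 8, with 8 without WT 2, where 7.44% to 25.3% of all genes were lower. The number of pathway genes lower, 17 with all libraries, was 9 under TPM, 9 under Cd3 scaling, 28 with array weights and 8 to 24 with 1 library left out (9 without KO 1, 8 without KO 2 or KO 3). The number higher, 4 with all libraries, was 7 under TPM, 15 with array weights and 3 to 10 with 1 library left out (10 without WT 2). Of all genes tested, 17.02% were higher under TPM, 32.8% with array weights and 26.8% without WT 2. With all libraries that share was 13.1%, so the counts of 7, 15 and 10 went with a rise over all genes. With a replicate block, which pairs same-numbered libraries, 4 members and 13 pathway genes were lower, against 11.0% of all genes tested. In that fit 4 pathway genes were higher, against 9.01% of all genes tested. Only pair 1 correlated best with its own number. TPM moved the median of all genes to 0.86 and Cd3 scaling to 0.25. Direction turned for Fas under median-of-ratios scaling (−0.00052) and with 1 library left out (−0.15 to 0.31), for Fadd under TPM (0.58), Cd3 scaling (0.055), array weights (0.071) and without WT 2 (0.048, range −0.23 to 0.048), for Tnfsf10 under TPM (0.38) and without WT 3 (range −1.09 to 0.11), and under TPM for Cflar (0.31) and Ripk1 (0.31). Relative to the shifted median of all genes under TPM, Fadd was at −0.28, Tnfsf10 at −0.47, Cflar at −0.55 and Ripk1 at −0.54; the cause of the other turns was not tested. With 3 libraries a group and 5 to 22 fragments behind the KO values of Fasl, Tnf and Tnfrsf10b, the size of those differences is known only roughly.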
